A study of Mus musculus with 3 samples.

Results

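The BCL2 family decides whether a cell's mitochondria stay intact or release the factors that start apoptosis, and 10 of its genes were followed here in mouse embryonic stem (ES) cells and mouse embryonic fibroblasts (MEF). The genes were Bcl2, Bcl2l1, Mcl1, Bax, Bak1, Bcl2l11, Bid, Bik, Bmf and Pmaip1. They were found by their symbol in the gene name column of the array files, with control spots left out and every probe kept. This gave 20 probes in 47 spots on each array, of 41174 probes and 43379 spots for genes under 27962 names. All 20 probes passed the filter on dim signals and were tested, and for 18 of them both channels cleared background on each of the 3 arrays.

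The family has 3 classes. Prosurvival proteins (here Bcl2, Bcl2l1, which encodes Bcl-xL, and Mcl1) hold the effectors Bax and Bak1 in check, and the effectors, once active, form pores in the outer mitochondrial membrane. BH3-only proteins (here Bcl2l11, known as Bim, Bid, Bik, Bmf and Pmaip1, known as Noxa) sense stress and either block the prosurvival proteins or activate the effectors. Pluripotent cells are known to undergo apoptosis readily after DNA damage.

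On each of 3 arrays the RNA of 1 ES cell replicate in Cy3 was hybridised together with MEF RNA in Cy5. The labels give no strain, line, genotype, passage or embryo age for either cell type and state that the ES cells received no treatment; they grew with serum and leukemia inhibitory factor, and the MEF in medium with serum alone. The MEF RNA counts as 1 control sample, and no test includes the spread between MEF cultures. Nothing says that the ES replicates were separate cultures, so the p-values rest on differences between arrays that may be technical. The dyes were never swapped, and any preference of a probe for 1 dye remains in its ratio. All 3 arrays lay on 1 slide, which therefore could not be tested as a batch. In RNA from whole cultures, fewer cells that express a gene and less of its RNA in each cell cannot be told apart.

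Spots well above background made up 68.6% to 70.6% of gene spots for ES cells and 68.2% to 74.0% for MEF. The log2 ratios of any pair of arrays correlated at 0.998 across probes, which are not independent replicates. The marker genes went the way of the labels: all 6 ES cell markers were called higher in ES cells and all 6 fibroblast markers lower. Of all 19681 genes, 20.3% were called higher and 22.4% lower. The marker lists were chosen with earlier results of these data known, so they are no independent check of the labels. The macrophage markers were also lower in ES cells for 6 of 7 genes (all but Laptm5). Their summed intensity was 420719 to 451892 in the MEF channel and 12647 to 13161 in the ES cell channel, and all 7 were above background in both on every array. Most of the MEF sum came from 1 probe of Lyz2 (mean 340155), and levels of different probes are not comparable. The 6 ES cell and 6 fibroblast markers were likewise above background in both channels on every array. The part of macrophages in the MEF culture in the results below was not tested.

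Each member was read by 60-base probes, and 6 of the genes had more than 1, with ratios that in several cases depended on the probe. The 6 sequences shown here, as the array files give them, were chosen because each reads a known part of the protein and so shows what its ratio refers to. The Bcl2 probe reads the BH1 region, part of the groove that binds BH3 domains, and the Bcl2l1 probe the stretch just ahead of BH2. The Bak1 probe reads its BH1 region, with codons of the conserved core in capitals. The Bcl2l11 probe codes for the end of the BH3 domain, the segment through which Bim binds its partners, and the stretch after it, with codons of the conserved BH3 core in capitals. The Bax probe reads a stretch ahead of the BH3 domain, and the Bmf probe the end of the protein.
Bcl2 A_51_P380013: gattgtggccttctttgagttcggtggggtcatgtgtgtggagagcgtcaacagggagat
Bcl2l1 A_52_P510877: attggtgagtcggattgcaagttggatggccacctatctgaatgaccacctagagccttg
Bax A_51_P254541: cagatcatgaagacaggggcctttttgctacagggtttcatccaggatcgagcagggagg
Bak1 A_52_P225207: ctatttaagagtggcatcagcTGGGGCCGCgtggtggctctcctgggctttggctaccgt
Bcl2l11 A_51_P484880: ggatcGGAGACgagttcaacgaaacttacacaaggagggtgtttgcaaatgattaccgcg
Bmf A_51_P482239: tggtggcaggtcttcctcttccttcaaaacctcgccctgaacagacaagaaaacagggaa

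Among the other probes, Bcl2 A_52_P438280, Mcl1 A_52_P93933 and Bcl2l11 A_52_P158527 hold a stop codon in all 3 sense frames, so these 3 of the 20 are not coding over their whole length. Whether the rest lie in coding or untranslated sequence was not determined, since no gene annotation of the build used by the files (mm7) was at hand. GC content ran from 31.7% to 60% over the 20 probes.

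In ES cells, 5 of the 20 probes were called lower and 0 higher. A call needed a limma p below 0.05 after adjustment together with a difference of 2-fold or more. Of all 29500 probes tested, 21.1% were called lower and 19.9% higher, 41.0% in all. All 5 belonged to Bcl2 and Bcl2l1, and the other 15 lay within 2-fold of MEF. Taken by the brightest probe of each gene, 2 of 10 genes were lower and 0 higher, against 22.4% and 20.3% of 19681 genes. The median log2 ratio, ES cells over MEF, was -0.10 over the 20 probes and -0.02 over all tested probes. By the brightest probe it was -0.40 over the 10 genes and -0.05 over all genes. The share called lower was near the background, and the count of 0 higher depended on the processing. It was 4 with processed signals, the authors' value table or median centring. Under these, 26.4%, 26.4% and 24.3% of all tested probes were called higher. With a background offset of 0 in place of 50 it was 2, against 22.8% of all tested probes. Which step of the processing moved the count was not tested.

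The fold minimum decides the calls here. Without it all 20 probes passed an adjusted p of 0.05, 9 above and 11 below 0, as did 95.4% of all tested probes (47.0% above and 48.4% below 0). Every member probe kept 1 sign on the 3 arrays, and its standard deviation (SD) between arrays ran from 0.0018 to 0.088 on the log2 scale. Probes that were not called are therefore given by their values. The share of all tested probes whose channels did not overlap was not counted. Statements on overlap below thus describe single probes only.

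**Figure D1:**
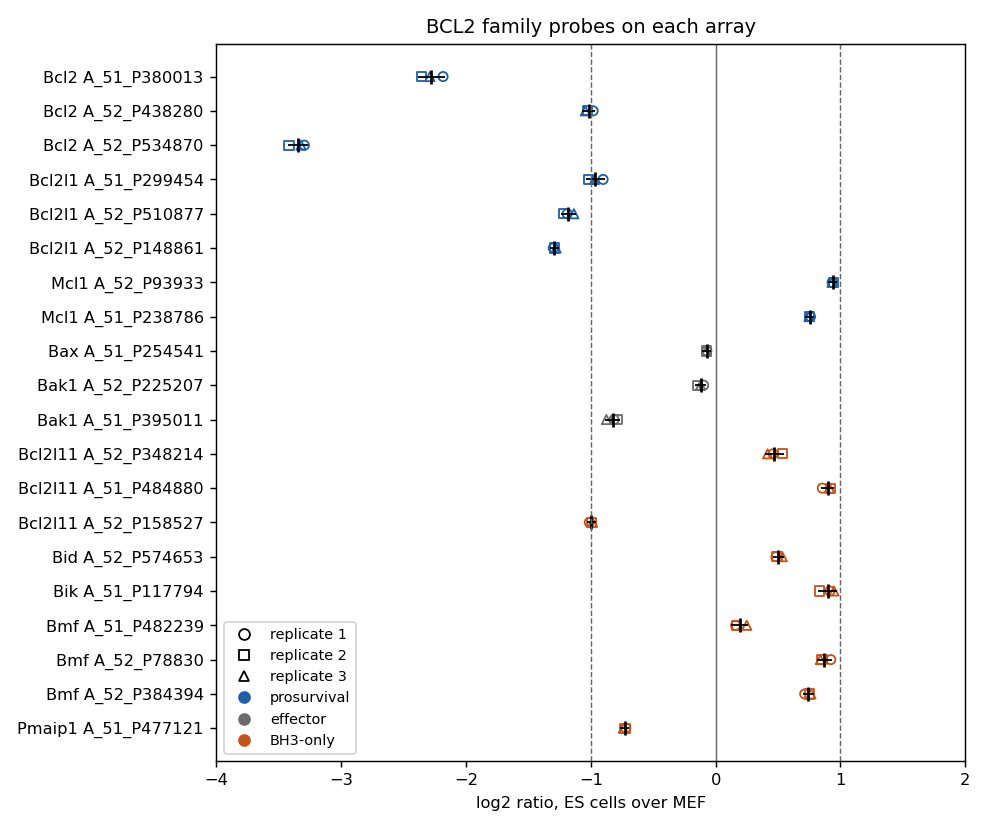
Log2 ratio of ES cells over MEF (horizontal axis) for each of the 20 probes (vertical axis; probes of a gene in transcript direction), with 1 open symbol per array, the mean as a tick and the 95% interval of the limma fit as a black line; dashed lines mark 2-fold. Bcl2 and Bcl2l1 probes lie at or below -0.96, both Mcl1 probes lie above 0.7, and Bcl2l11 has probes on both sides of 0.

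By role, the 5 calls all fell among the 8 prosurvival probes, whose log2 ratios spanned -3.35 to 0.94. They came from 2 of the 3 prosurvival genes, and both probes of the other, Mcl1, lay above 0. Of all tested probes 21.1% were called lower. None of the 3 effector probes was called (-0.83 to -0.07), nor any of the 9 BH3-only probes (-0.997 to 0.90).

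Bcl2, which encodes the founding prosurvival protein, was lower in ES cells by all 3 of its probes. The brightest, A_52_P534870, lies on chromosome 1 from 106438098 to 106438157, minus strand, and was spotted 10 times on each array. Its ES cell intensities were 231, 206 and 222 on arrays 1 to 3, against 2267, 2203 and 2218 in the MEF channel. The channels were far apart on every array. The log2 ratio was -3.35 ± 0.065 (SD, n = 3 arrays), or 10.2-fold, and limma gave an adjusted p of 3.63e-07. Outlier marks left 8, 7 and 9 of the 10 spots in use, and single spots lay between -3.54 and -3.14. This ratio stood at percentile 2.35 of all tested probes, the lowest place of any member probe. Over the alternative runs it ranged from -3.84 to -3.15.

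The Bcl2 probe in the BH1 region, A_51_P380013 (chromosome 1, 106612249 to 106612308), gave a smaller difference. Its ES cell intensities were 301, 280 and 282 and its MEF intensities 1368, 1438 and 1378. The channels did not overlap. The log2 ratio was -2.28 ± 0.088, a 4.85-fold difference (adjusted p = 1.78e-06, limma, n = 3 arrays). It lies 174151 bases from the brightest probe on mm7, and the files list the pair under different transcript records of Bcl2. The difference between their log2 ratios was 1.07 ± 0.040, of the same sign on all 3 arrays.

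The remaining Bcl2 probe, A_52_P438280 (chromosome 1, 106610589 to 106610648), was not well above background in ES cells on any array. ES cells measured 124, 124 and 115 and MEF 245, 253 and 238. Set against the detection floor, Bcl2 was 2.02-fold lower by this probe, a point value of the bound that leaves out the spread between arrays. Against a ratio of 0, limma gave an adjusted p of 2.04e-06 (n = 3 arrays). For that bound the mean MEF signal was divided by a floor, which on each array was the dimmest signal that still cleared background or the probe's own, whichever was higher. Dye bias can affect it. The bound was almost equal to the fitted fold of this probe (both 2.02 after rounding) and so adds little to it. The fitted log2 ratio of this probe, -1.02 ± 0.032, sat on the threshold, with a 95% interval from -1.07 to -0.97. The probe was not called with median centring (-0.97) or when tested against the 2-fold limit itself (treat, adjusted p = 0.496). It was called and further from 0 with an offset of 0 (-1.46) and with processed signals and the authors' value table (-2.18). The other Bcl2 probes were called under every alternative run.

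Bcl2l1 was called lower by 2 of its 3 probes. It encodes Bcl-xL, the prosurvival protein found in most tissues. The brightest probe, A_52_P148861, lies on chromosome 2 from 152521752 to 152521811 and was also spotted 10 times. ES cells measured 3973, 4037 and 4052, and MEF 9790, 9899 and 9828. The channels did not overlap, and the log2 ratio was -1.29 ± 0.012, a 2.45-fold difference (adjusted p = 4.82e-07, limma, n = 3 arrays).

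The Bcl2l1 probe ahead of BH2, A_52_P510877 (chromosome 2, 152570306 to 152570365), measured 215, 221 and 225 in ES cells and 490, 514 and 495 in MEF. Its log2 ratio of -1.18 ± 0.041 was a 2.27-fold difference (adjusted p = 2.03e-06, limma, n = 3 arrays). It lies 48554 bases from the brightest probe, and the ratios of that pair differed by only 0.11 ± 0.033. The remaining probe, A_51_P299454 (chromosome 2, 152570851 to 152570910), stood at -0.96 ± 0.058 and missed the fold minimum, with a 95% interval from -1.04 to -0.89. It passed with processed signals and with the authors' value table (both -1.18) and with a normexp offset of 0 (-1.11). All 3 Bcl2l1 probes thus lay within 0.33 of each other.

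Mcl1, the short-lived prosurvival protein that binds Noxa and Bim, was not called. The brightest probe, A_51_P238786 (chromosome 3, 95536882 to 95536941), measured 70565, 70450 and 68529 in ES cells and 41672, 41789 and 40811 in MEF. The ES cell channel was brighter on every array without reaching 2-fold, at a log2 ratio of 0.75 ± 0.0061. The other probe, A_52_P93933 (95535570 to 95535629), lay 1312 bases upstream at 0.94 ± 0.0063. It passed 2-fold with processed signals and with the authors' value table (both 1.03) and with median centring (1.15). No Mcl1 spot was saturated.

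**Figure D2:**
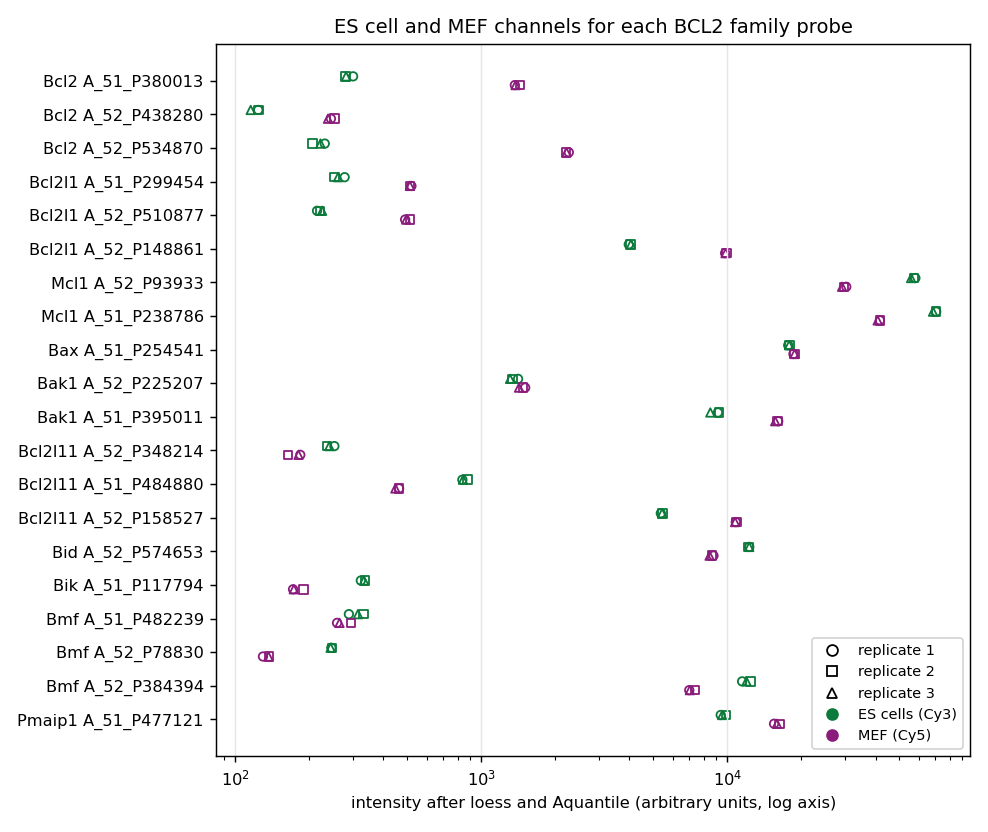
Intensity in the ES cell channel (green) and the MEF channel (purple) for each of the 20 probes on each array, on a log axis in arbitrary units after loess and Aquantile normalization; symbols mark the replicate. Levels of different probes are not comparable, only the 2 channels of a row: Bcl2 lies near 220 against 2229 by its brightest probe, and Bax at 17783 against 18689.

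Of the effectors, Bax differed little and Bak1 by an amount that depended on the probe. Bax, whose protein moves from the cytosol to mitochondria on activation, was read by A_51_P254541, whose sequence spans 156 bases on chromosome 7 from 41641827 to 41641982. ES cells measured 17669, 17863 and 17816 and MEF 18556, 18760 and 18751 over 10 spots per array. The log2 ratio was -0.07 ± 0.0018, a 1.05-fold difference, and with processed signals and the authors' value table it turned to 0.083 and with median centring to 0.21, where the median of all tested probes moved from -0.02 to 0.15. No direction is therefore given for Bax.

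Bak1, the effector anchored in the mitochondrial membrane, had probes that disagreed in size. The brightest, A_51_P395011 (chromosome 17, 25204734 to 25204793), measured 9152, 9242 and 8524 in ES cells and 16086, 15975 and 15641 in MEF. The channels did not overlap, and the log2 ratio of -0.83 ± 0.045 was within 2-fold. The probe in the BH1 region, A_52_P225207, lies 1153 bases upstream in the transcript direction and stood at -0.12 ± 0.024. Like Bax it turned sign, to 0.027 with processed signals and the authors' value table and to 0.11 with median centring. The pair differed by 0.71 ± 0.056.

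Bcl2l11 was the only member with probes on both sides of 0. It encodes Bim, the BH3-only protein that binds all prosurvival relatives. The brightest probe, A_52_P158527 (chromosome 2, 127903168 to 127903227), measured 5363, 5456 and 5426 in ES cells and 10818, 10867 and 10748 in MEF. Its log2 ratio of -0.997 ± 0.013 was a 2.00-fold difference that fell just short of the fold minimum. Without replicate 3 it passed it (-1.003), so that 3 genes rather than 2 were called lower by their brightest probe.

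The Bcl2l11 probe that begins in the BH3 domain, A_51_P484880, pointed the other way. It spans 11096 bases of chromosome 2, from 127888010 to 127899105, and so crosses an intron. ES cells measured 837, 878 and 842 and MEF 463, 463 and 447. The log2 ratio was 0.90 ± 0.037, within 2-fold, and 1.13 with processed signals and the authors' value table and 1.08 with median centring, which passed. On mm7 it begins 15158 bases upstream of the brightest probe, and their ratios differed by 1.89 ± 0.026, with differences of 1.87, 1.92 and 1.90 on the 3 arrays. A sign-flip test on 3 arrays cannot go below p = 0.25 (exact, two-sided), so no p is given for this difference.

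The remaining Bcl2l11 probe, A_52_P348214, lies further upstream, from 127869853 to 127870534, and stood at 0.47 ± 0.059. The files give it the Bcl2l11 name, but its transcript record was not matched in the RefSeq gene table (GRCm38.p6). Averaged over its 3 probes, Bcl2l11 had a log2 ratio of 0.12, so the sign for this gene depends on the probe chosen.

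**Figure D3:**
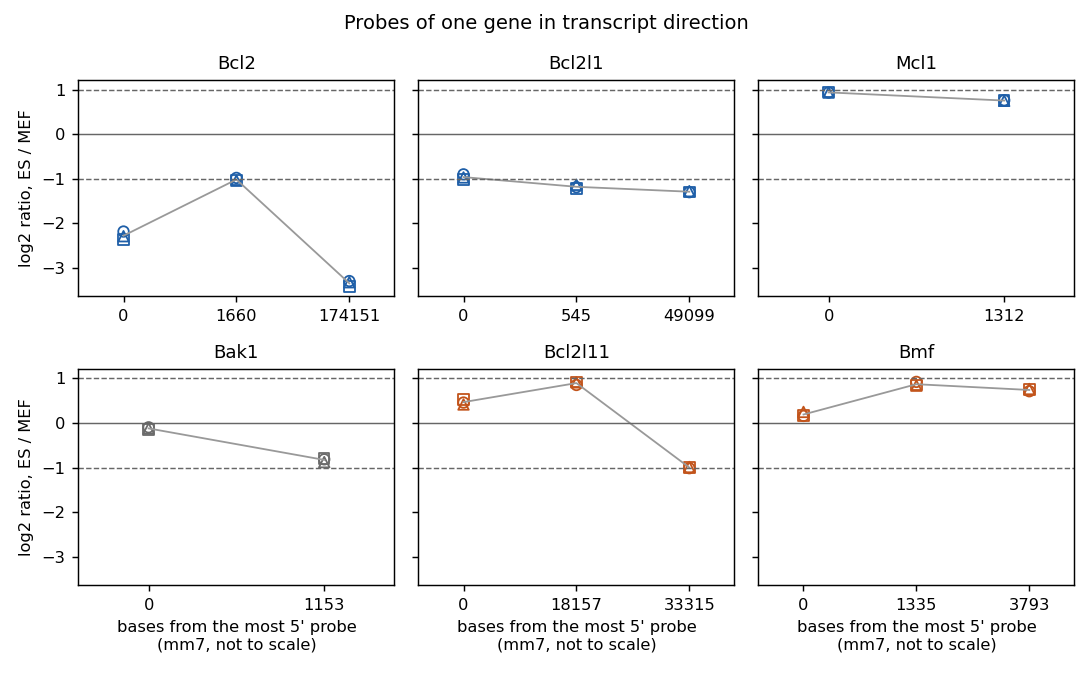
Log2 ratio of ES cells over MEF on each array (open symbols; the line joins the means) for the 6 members with more than 1 probe, with probes ordered in transcript direction and labelled by their distance on mm7 from the most 5' probe; the spacing is not to scale and dashed lines mark 2-fold. The Bcl2l11 ratio drops from 0.90 to -0.997 between its middle and its most 3' probe, whereas the Bcl2l1 and Mcl1 probes stay close together.

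Among the other BH3-only genes, Bik had the highest ratio by a gene's brightest probe. Its protein sits mainly at the endoplasmic reticulum. Probe A_51_P117794 (chromosome 15, 83625939 to 83625998) measured 324, 336 and 334 in ES cells and 172, 189 and 173 in MEF. The log2 ratio of 0.90 ± 0.061 was within 2-fold, with a 95% interval from 0.82 to 0.98. The ratio was 1.52 with processed signals and the authors' value table, 1.14 with an offset of 0 and 1.00 with median centring, all of which passed.

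Bmf, whose protein is held by dynein light chain at the cytoskeleton until stress frees it, had its 3 probes above 0. The brightest, A_52_P384394 (chromosome 2, 118269632 to 118269691), measured 11476, 12430 and 11952 in ES cells and 6999, 7396 and 7039 in MEF. Its log2 ratio was 0.74 ± 0.026, and 1.02 with median centring. Probe A_52_P78830 stood at 0.87 ± 0.045 but cleared background in the MEF channel on 2 of 3 arrays only. It was called higher with an offset of 0 (1.21) and with processed signals and the authors' value table (1.55). The probe at the end of the coding sequence, A_51_P482239, gave 0.19 ± 0.050, with ES cells at 289, 331 and 315 and MEF at 259, 295 and 265, so the channels overlapped across arrays though not within one.

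Bid, which links death receptors to mitochondria once caspase-8 cuts it, stood at 0.50 ± 0.027 by probe A_52_P574653 (chromosome 6, 120918747 to 120918806). ES cells measured 12270, 12181 and 12262 and MEF 8779, 8659 and 8465. Pmaip1, which encodes Noxa, the p53-induced partner of Mcl1, stood at -0.73 ± 0.010 by probe A_51_P477121. ES cells measured 9396, 9848 and 9523 and MEF 15476, 16288 and 15907. In both genes the channels did not overlap and the difference was within 2-fold under every setting with the fold minimum.

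Ordered by the brightest probe, the log2 ratios ran from Bcl2 (-3.35) through Bcl2l1 (-1.29), Bcl2l11 (-0.997), Bak1 (-0.83), Pmaip1 (-0.73), Bax (-0.07), Bid (0.50), Bmf (0.74) and Mcl1 (0.75) to Bik (0.90). Of neighbours in this order, only the values of Bmf and Mcl1 overlapped between arrays.

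**Figure D4:**
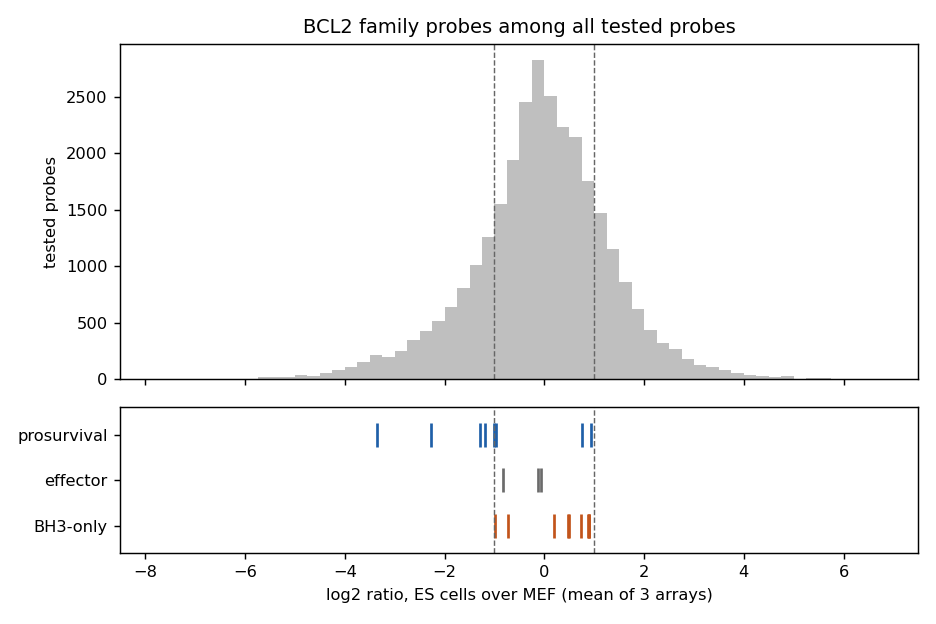
Number of tested probes by log2 ratio of ES cells over MEF in bins of 0.25 (upper panel, 29500 probes) and the 20 member probes by role (lower panel, 1 tick per probe); dashed lines mark 2-fold. Apart from the Bcl2 probes at -3.35 and -2.28, the members lie between -1.29 and 0.94, in the bulk of the distribution.

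The other genes of the pathway were taken from 6 lists with 47 genes, of which 44 were tested. By the brightest probe 6 were called higher in ES cells, 10 lower and 28 neither. Of all 19681 genes, 20.3% were called higher and 22.4% lower, shares that belong beside these counts and those of each list below. Hrk, a neuronal BH3-only gene, was not well above background, and Bcl2a1a and Bcl2a1d were not matched to a probe by name.

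Of the remaining prosurvival relatives, Bcl2a1b, known from blood cells, was lowest. ES cells measured 265, 277 and 260 and MEF 6347, 6773 and 6760, and the log2 ratio was -4.63 ± 0.063 (24.8-fold, adjusted p = 2.19e-07, limma, n = 3 arrays). Near-identical copies of this gene may share the probe, and the macrophage markers above moved the same way (median -4.86), without a test of their part in it. Bcl2l2, which encodes Bcl-w, was lower at -1.53 ± 0.018. Bcl2l10 was called higher, although its MEF signal did not clear background on any of the 3 arrays. Set against the same kind of floor as for Bcl2, the difference was 2.44-fold. That floor is the dimmest signal that cleared background, and a brighter floor would give a smaller fold. The fitted log2 ratio of Bcl2l10 was 1.44, and 2.33 with an offset of 0 and 3.69 with processed signals and the authors' value table.

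Of 8 tested relatives listed as proapoptotic, 2 were higher and 1 lower. The role of each gene was taken from that list and was not tested here. Bcl2l14 stood at 2.63 ± 0.036 by its brightest probe, for which 2 of 3 arrays cleared background in MEF, and 1.21 by the other. The brightest gave 3.19 with an offset of 0 and 3.79 with processed signals and the authors' value table. Bok, a Bax-like protein, sat at the edge at 1.01 ± 0.039. Its call was lost without replicate 1 (0.985) and under treat. Bad, a BH3-only protein that growth factor signals silence, was lower at -1.12 ± 0.032, with calls lost over the mean of its probes (-0.92) and with median centring (-0.95). Bbc3 (Puma), the other p53-induced BH3-only gene, stood at 0.64 ± 0.013. Bcl2l12 (-0.25) and Bnip3l (-0.09) were small, and both turned sign with median centring (0.020 and 0.16), Bnip3l also with processed signals and the authors' value table (0.022).

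Downstream of the mitochondria, 1 of 8 genes of the apoptosome and caspases was called. Casp8, the initiator of the death receptor route that cuts Bid, was lower at -2.89 ± 0.033. Cycs (cytochrome c, 0.82 ± 0.0092), Casp2 (0.55) and Casp6 (-0.73) were within 2-fold, though Cycs passed with median centring (1.03). Among 9 released factors and inhibitors of apoptosis, Birc5 (survivin, also a mitotic protein) at 1.93 ± 0.017 and Birc2 at 1.21 ± 0.017 were higher. Htra2 at -1.41 ± 0.010 and Birc3 at -1.13 ± 0.033 were lower, the latter not over the mean of its probes (-0.98) or with median centring (-0.87). Aifm1 stood at 0.75 and passed with median centring (1.03), and Birc6 at -0.12, which turned to 0.14 with median centring and 0.022 with processed signals and the authors' value table.

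Of 11 partners and ligases of the members, Fbxw7, a ligase subunit that marks Mcl1 for degradation, was higher at 1.17 ± 0.014. Huwe1, another Mcl1 ligase, and Usp9x, which removes ubiquitin from Mcl1, stood at 0.96 ± 0.025 and 0.90 ± 0.015 by their brightest probes, within 2-fold. These 2 probes passed with processed signals and the authors' value table (1.11 and 1.04) and with median centring (1.21 and 1.18). The other Huwe1 probes ran from 0.09 to 1.19, those at 1.09 and 1.19 were called higher, and the mean of its 7 probes was 0.71. Tmbim6 (Bax inhibitor-1) at -1.53 ± 0.017 and Tpt1, which binds Mcl1 and Bcl-xL, at -1.28 ± 0.054 were lower, and Bag1, a Bcl2 partner, stood at -0.27 and turned to 0.010 with median centring. Of 5 upstream transcription factors, the stress factors Ddit3 (CHOP), which is known to repress Bcl2 and induce Bim, at -2.69 ± 0.028 and Atf4 at -1.87 ± 0.040 were lower. Trp53, which induces Noxa, Puma and Bax, stood at 0.94 by its brightest probe and -0.59 by the other, and the brightest passed with processed signals and the authors' value table (1.10) and with median centring (1.22). Foxo3, an inducer of Bim, stood at 0.65 and -0.30, and E2f1 at 0.16.

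**Figure D5:**
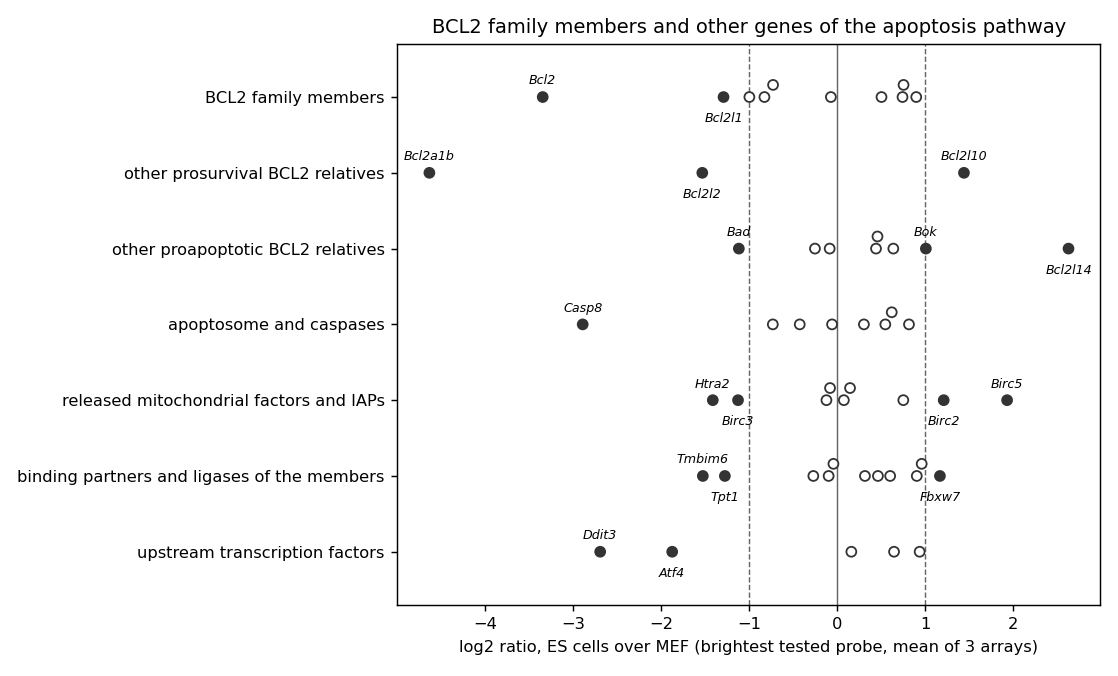
Log2 ratio of ES cells over MEF by the brightest probe (horizontal axis, mean of 3 arrays) for the members and the 6 pathway lists (rows); filled circles passed the adjusted p and the 2-fold minimum, dashed lines mark 2-fold, and raised circles only avoid overlap. In the top row Bcl2 and Bcl2l1 are the filled circles, and the lowest value of any row is Bcl2a1b at -4.63.

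With a single contrast, likeness between genes can only be nearness of 1 ratio over 3 arrays. Nearest to Bcl2 among the pathway genes was Casp8, 0.45 away, followed by Ddit3 and Bcl2a1b. Bad, Birc3 and Casp6 were nearest to Bcl2l11 by its brightest probe. Aifm1 (0.0025 away), Cycs and Foxo3 were nearest to Mcl1, and Usp9x (0.0061 away), Trp53 and Huwe1 to Bik. All these distances are between brightest probes and depend on that choice. Other probes stood at 0.45 for Aifm1, -0.30 for Foxo3, -0.59 for Trp53 and 0.94 for Mcl1 itself.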

How the data were processed

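Arrays were scanned in 2 colours and quantified with Agilent Feature Extraction 9.5.3.1, per the file headers, and probe coordinates are on mouse build mm7. The deposited intensity values used here are mean spot and median local background brightness, not background-subtracted. The deposited log10 ratio, per the file headers, is Cy5 over Cy3 of processed signals, thus MEF over ES cells. The authors' log2 value table lay within 0.01 of its sign-turned log2 form for 85.4% to 87.8% of probes (column medians 0.213, 0.0859 and -0.14), so it is ES cells over MEF and not centred; the handling of the remaining probes stays unknown. A line of the design text names the Cy5 sample otherwise than MEF, and the sample labels were followed.

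Signals were corrected with normexp (offset 50, which shrinks ratios of dim probes) and loess in limma 3.58.1 (R 4.3.3), controls at weight 0, outlier spots (117 to 144 per array) left out and spots of a probe averaged. Probes well above background in either channel on all 3 arrays were tested against 0 (lmFit, eBayes, Benjamini-Hochberg over 29500 probes) and called at an adjusted p under 0.05 and at least 2-fold. Channel intensities are those after Aquantile. The procedure was tested on simulated data with planted log2 ratios of 1.5 and 3 in size, in both directions. Of 50 probes planted at each value, 46 to 50 were called with the right sign. None was planted near the 2-fold limit, so the simulation cannot show how calls behave there. The number of arrays limits the precision.

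The members and all lists were chosen with earlier results of these data known. Named were every member probe, the 3 highest and 3 lowest genes of each pathway list by the brightest probe, the classical relatives whatever their value, the cell type markers, and the 3 pathway genes nearest in ratio to Bik, Bcl2l11, Bcl2 and Mcl1; some genes that this rule takes in are not reported here. Alternatives were processed signals, no background subtraction, offset 0, median centring, other filters, outliers kept, the authors' table, no fold minimum, treat, each replicate left out, and other choices of probe per gene.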

Additional observations from a re-analysis of the deposited data

How the results depend on the processing

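Counts of calls moved as follows. Member probes called higher in ES cells numbered 4 with processed signals, with median centring and with the authors' value table, 2 with a normexp offset of 0, and 9 without a fold minimum (11 lower), against 0 in the report. All tested probes called higher were then 26.4%, 24.3%, 26.4%, 22.8% and 47.0%, in that order, against 19.9%. Members called higher by the brightest probe numbered 1 with processed signals, offset 0 and the authors' table, 2 with median centring and 4 without a fold minimum (6 lower). Pathway genes called higher rose from 6 to 11 with median centring, and to 24 (19 lower) without a fold minimum, where 13851 of all probes were higher and 14289 lower. Bax turned to 0.083 with processed signals and the authors' table and 0.21 with median centring, and Bak1 A_52_P225207 to 0.027 and 0.11 likewise. Birc6 turned to 0.022 and 0.14, Bnip3l to 0.022 and 0.16, and, with median centring alone, Bcl2l12 to 0.020 and Bag1 to 0.010. The cause was not tested. With 1 replicate left out, member probes called lower numbered 5 to 6 and higher 0, members lower 2 to 3, pathway genes higher 5 to 6 and lower 10. Over the mean of a gene's probes 2 members stayed lower. The pairing of ES cells and MEF on an array is already in its ratio, which was tested against 0. No further pairing was possible, since no other group of samples shares the replicate numbers. Limits are the 3 arrays, the unswapped dyes, the single slide and the unreplicated MEF RNA. Signals were close to background for Bik, Bmf A_52_P78830, Bcl2l11 A_52_P348214 and Bcl2 A_52_P438280, among others.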
